A study of Mus musculus with 32 samples.

Results

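The 10 genes described here mark macrophages and other leukocytes: Retnla, Lsp1, Mrc1, Cd68, Adgre1, Csf1r, Ptprc, Itgam, Lyz2 and S100a8. They were taken by symbol from a table of read counts for 54532 genes, and each symbol matched 1 row. Retnla and Lsp1 were chosen by their measured fold changes, since lower counts after cisplatin had already been seen in these libraries, so their levels over the days are described without a test, whereas the other 8 were tested between days and all 10 between the sexes. For Retnla and Lsp1, the tests between the sexes use the libraries by which they were chosen and are not independent of that choice. The libraries are bulk RNA from the kidneys of 32 wt C57bl/6 mice, 4 males and 4 females at each of Day 0, Day 2, Day 3 and Day 5 of acute kidney injury. The injury came from 1 intraperitoneal injection of cisplatin, a platinum drug taken up by the proximal tubule. Day 0 served as the healthy baseline in the study, although the labels give the Day 0 females the treatment cisplatin and the Day 0 males the treatment NA, and no vehicle-injected group was analysed here for the later days. Each library is 1 mouse. In such bulk tissue, fewer cells of a type and less RNA per cell cannot be told apart.

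The healthy kidney holds a network of resident macrophages between the tubules, which depend on signals through the receptor encoded by Csf1r and carry the surface proteins encoded by Adgre1 (F4/80) and Mrc1 (CD206). After tubular injury, monocytes and neutrophils enter from the blood, and all of these cells carry Ptprc (CD45), the phosphatase common to nucleated blood cells. Retnla encodes a secreted protein (RELMα, Fizz1) that serves as a marker of macrophages activated through interleukin 4, and it is also known from fat tissue and lung. Lyz2 encodes the lysozyme of macrophages and neutrophils, and S100a8 encodes 1 chain of calprotectin, an abundant cytosolic protein of neutrophils.

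The promoters of the secreted products Retnla and Lyz2 and of S100a8 are shown because the results below on secreted and cytosolic effectors turn on these genes. They are RefSeq sequences of GRCm38.p6, from 250 bases before the start of the gene to 50 bases after it, in the direction of the gene, with the letters AGGAAGT or their reverse complement ACTTCCT in capitals. These letters are the core bound by PU.1, the transcription factor of the myeloid lineage.
Retnla, chr16:48842359-48842658, plus strand: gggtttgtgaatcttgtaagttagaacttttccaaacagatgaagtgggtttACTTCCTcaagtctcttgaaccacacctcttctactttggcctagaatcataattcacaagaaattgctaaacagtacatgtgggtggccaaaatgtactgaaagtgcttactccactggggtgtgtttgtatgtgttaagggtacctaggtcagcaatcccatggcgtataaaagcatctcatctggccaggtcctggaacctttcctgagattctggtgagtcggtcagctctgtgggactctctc
Lyz2, chr10:117282223-117282522, minus strand: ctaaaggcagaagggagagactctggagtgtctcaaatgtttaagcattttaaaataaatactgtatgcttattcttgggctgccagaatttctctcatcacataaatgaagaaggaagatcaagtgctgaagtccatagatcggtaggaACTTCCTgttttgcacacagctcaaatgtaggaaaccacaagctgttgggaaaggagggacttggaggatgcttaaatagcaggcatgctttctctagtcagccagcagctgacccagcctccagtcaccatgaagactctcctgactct
S100a8, chr3:90668821-90669120, plus strand: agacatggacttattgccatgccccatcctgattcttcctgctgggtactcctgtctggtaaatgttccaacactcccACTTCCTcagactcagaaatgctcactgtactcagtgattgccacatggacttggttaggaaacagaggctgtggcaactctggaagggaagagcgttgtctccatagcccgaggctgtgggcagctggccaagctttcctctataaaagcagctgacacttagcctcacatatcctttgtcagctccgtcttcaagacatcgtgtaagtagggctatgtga
The 3 matches start at position -198 in Retnla, -100 in Lyz2 and -172 in S100a8, counted from the first base of the gene in RefSeq, which for these 3 genes differs from the start in the count table given below. RefSeq promoters were found for 7 of the 10 genes, 8 promoters in all since Ptprc has 2, and 6 of these 8 (those of Lyz2, Mrc1, Ptprc, Retnla and S100a8) held the letters on 1 strand or the other, against 9.35% of all 32851 promoters in the table. The Ptprc promoters overlap and share a match, so counted by gene 5 of 7 held the letters. TATAAA stood at -30 in Retnla and in S100a8, its reverse complement in Ptprc, and the letters were present in 13.6% of all promoters. The Retnla promoter also held TTGCNNAA, the half-palindrome read by C/EBP factors, at -134, and TTCNNNNGAA, the spacing read by STAT6, at -145, and the 3 kinds of match do not overlap. These were found in 10.8% and 6.95% of all promoters. A match of letters is a description of the sequence and no evidence that a factor binds there.

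Library totals ran from 16502107 to 35961325 counts. Mitochondrial genes took 4.49% to 24% of the counts on Day 0 to Day 3, 42.5% to 79.8% in the male Day 5 libraries and 9.30% to 77.9% in the female ones, so the Day 5 values rest on fewer nuclear counts. Xist, the RNA of the inactive X chromosome, had 4153 counts in the library labelled male Day 5 mouse 1, beside 387 of Y-linked genes, against 59 to 260 Xist counts in the other 3 libraries of its group, which goes against its label. Male Day 5 results are therefore also given without it where that changes a call of the 10 genes or a list count in the text. Y-linked genes, at 0 counts in the 12 later female libraries, had 221, 5, 44 and 66 counts in Day 0 females 1 to 4, and Xist had 242 counts in Day 0 male mouse 4, against 0 to 50 in the other Day 0 males. Each comparison was also fitted with each of its libraries left out in turn. The defining markers of the labelled tissue were present, with all 12 proximal tubule genes counted in every library. Their summed level was 1327 to 9338 CPM (counts scaled to a common library size with TMM) in males at Day 5 and 6150 to 20675 CPM in the other groups.

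Per base of transcript, on the FPKM scale, the order of the median levels over the 32 libraries was Lyz2 (18), Csf1r (8.67), Retnla (5.51), Cd68 (3.66), Lsp1 (1.14), Adgre1 (0.967), Mrc1 (0.703), S100a8 (0.663), Ptprc (0.294) and Itgam (0.130). Ranges were wide enough that each neighbour in this order overlapped the next. S100a8 spanned 0.102 to 108 FPKM and Lyz2 6.62 to 135 FPKM, whereas Csf1r kept within 5.72 to 13.5 FPKM. Every library held at least 14 counts of Retnla, but Itgam and S100a8 were each at 3 counts or fewer in 3 libraries, which is the limit of what these totals detect.

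**Figure D1:**
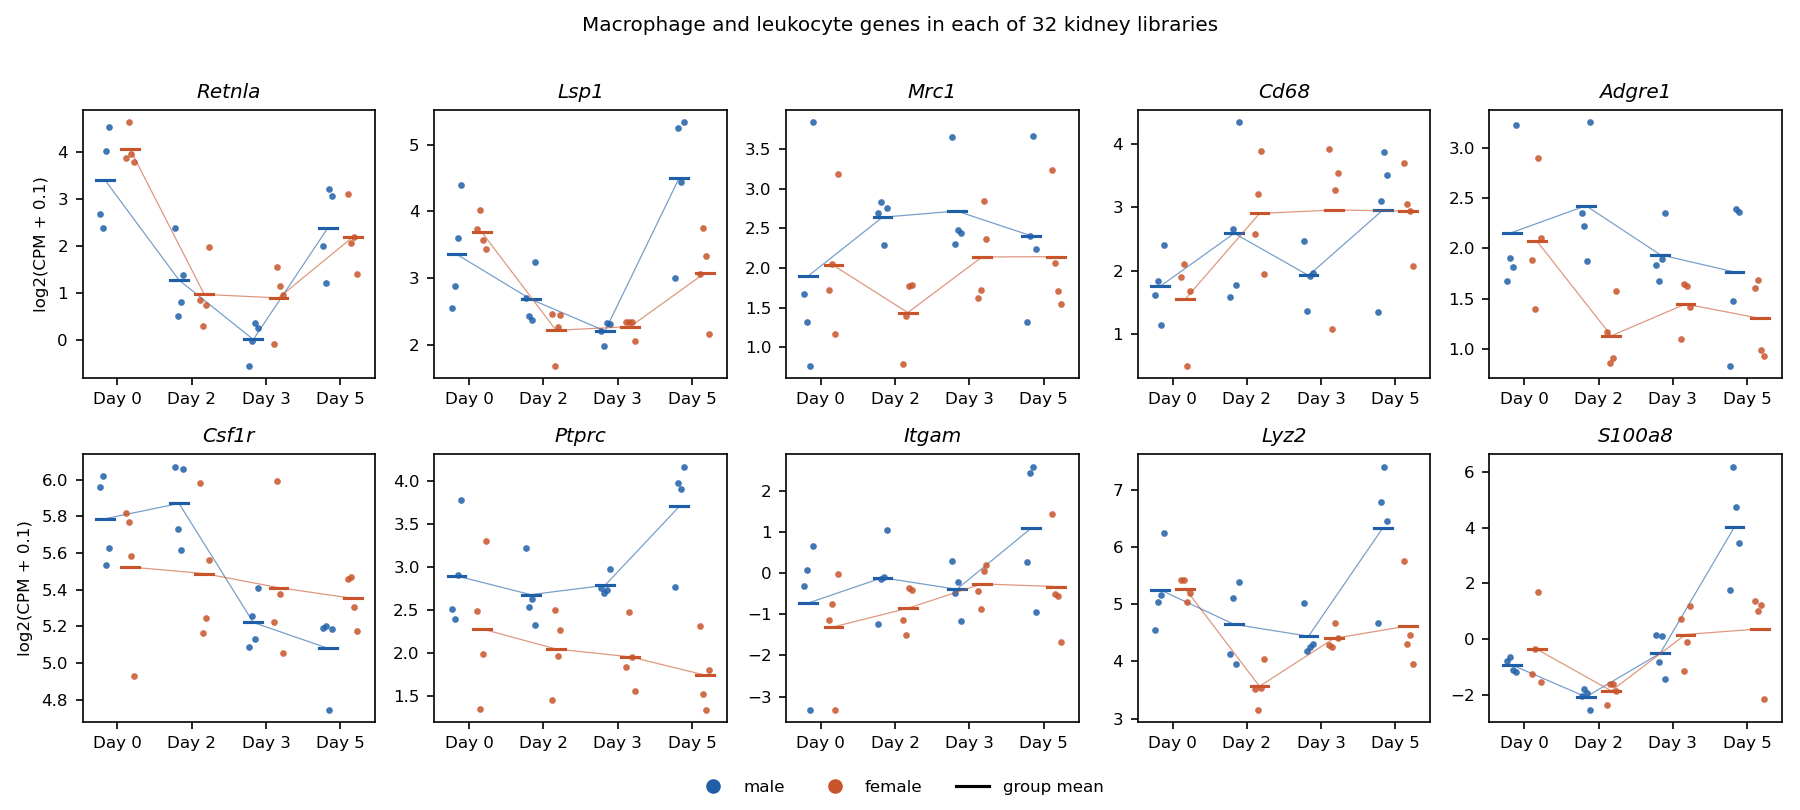
Level of each of the 10 genes in each library, as log2 of CPM plus 0.1, by day, with males in blue, females in orange and bars at the group means of the plotted values (4 mice each). Retnla and Lsp1 lie low on Day 2 and on Day 3 for males and females alike, S100a8 lies highest in males at Day 5, and Csf1r moves over the narrowest range.

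Retnla (chromosome 16, 48842551 to 48844461, GRCm38) was lower in every library at Day 2 and Day 3 than in any Day 0 library of the same sex. The 4 Day 0 males held 6.29, 5.15, 16.3 and 23.2 CPM and the 4 Day 0 females 14.6, 24.7, 15.4 and 13.7 CPM. Values at Day 2 were 5.15, 1.33, 1.65 and 2.51 CPM in males and 1.69, 1.13, 1.58 and 3.86 CPM in females. At Day 3 they were 0.584, 0.887, 1.18 and 1.09 CPM in males and 0.842, 2.83, 2.11 and 1.85 CPM in females. The lowest Day 0 male and the highest Day 2 male thus nearly touched, while the other groups were well apart. By Day 5 the males were at 3.91, 2.23, 9.18 and 8.28 CPM and the females at 8.53, 4.09, 4.49 and 2.53 CPM, with males overlapping Day 0 but not Day 3, and females below Day 0, the lowest of them within the Day 3 range. Means were lower than at Day 0 by 4.79-fold, 13.6-fold and 2.16-fold in males at Day 2, Day 3 and Day 5, and by 8.27-fold, 8.95-fold and 3.48-fold in females. The fitted log2 fold changes were -2.25 ± 0.59, -3.77 ± 0.55 and -1.05 ± 0.58 (SE, 4 mice against 4) in males and -3.06 ± 0.40, -3.17 ± 0.38 and -1.80 ± 0.38 in females. Since the gene was chosen for this pattern, these are descriptions.

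Lsp1 (chromosome 7, 142460809 to 142494867), which encodes an actin-binding protein of leukocytes, was also lower at Day 3 than at Day 0, by less than Retnla, and in males took another course at Day 5. Day 0 values were 5.75, 7.30, 12.1 and 20.9 CPM in males and 13.2, 16.2, 11.8 and 10.7 CPM in females. Day 3 values were 4.50, 3.86, 4.93 and 4.86 CPM in males and 4.98, 4.98, 4.99 and 4.04 CPM in females, all below the lowest Day 0 mouse. The Day 3 means were 2.54-fold lower in males and 2.73-fold lower in females (log2 fold change -1.35 ± 0.39 and -1.46 ± 0.20). Day 2 gave 6.37, 5.27, 5.06 and 9.36 CPM in males, which overlapped Day 0, and 5.43, 3.12, 4.71 and 5.34 CPM in females, which did not. In males at Day 5, 3 libraries stood at 38.0, 21.6 and 40.3 CPM, above the highest Day 0 male, and the library labelled mouse 1 stood at 7.88 CPM. The Day 5 females, at 8.21, 13.3, 9.94 and 4.37 CPM, overlapped Day 0.

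Of the other 8 genes, few passed the test against Day 0, the quasi-likelihood test of edgeR, with p-values adjusted by Benjamini-Hochberg over all genes tested and a threshold of 0.05. In males at Day 2, 7 of the 8 could be tested and none was called, with none at an unadjusted p under 0.05, while 1.81% of 16051 genes were called higher and 1.35% lower; DESeq2 called none and limma voom with sample quality weights called Mrc1. One day later, Csf1r alone was called, as lower, beside 11.4% of 15908 genes called higher and 13.1% lower. At Day 5, S100a8 was called higher and Csf1r lower, beside 8.98% and 10.2% of 14969 genes. In females, Lyz2 was called lower at Day 2 (background 0.774% of 16541 genes higher and 1.16% lower) and at Day 3 (1.26% of 17065 higher and 4.28% lower). None of the 8 was called in females at Day 5, where 0.185% of 16260 genes were called higher and 0.0738% lower; 1 had an unadjusted p under 0.05, DESeq2 called Cd68 and limma voom none. Without the library labelled male Day 5 mouse 1 the male Day 5 count was 4, beside 11.4% of 15221 genes called higher and 14.5% lower. That fit added Cd68 (log2 1.81, edgeR adjusted p = 0.0075) and Lyz2 (log2 1.63, edgeR adjusted p = 0.0184). Without Day 0 mouse 4, Ptprc was called in males at Day 5 (log2 1.23, edgeR adjusted p = 0.0442). The shares of the 8 genes called are too small a count to set apart from these backgrounds.

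**Figure D2:**
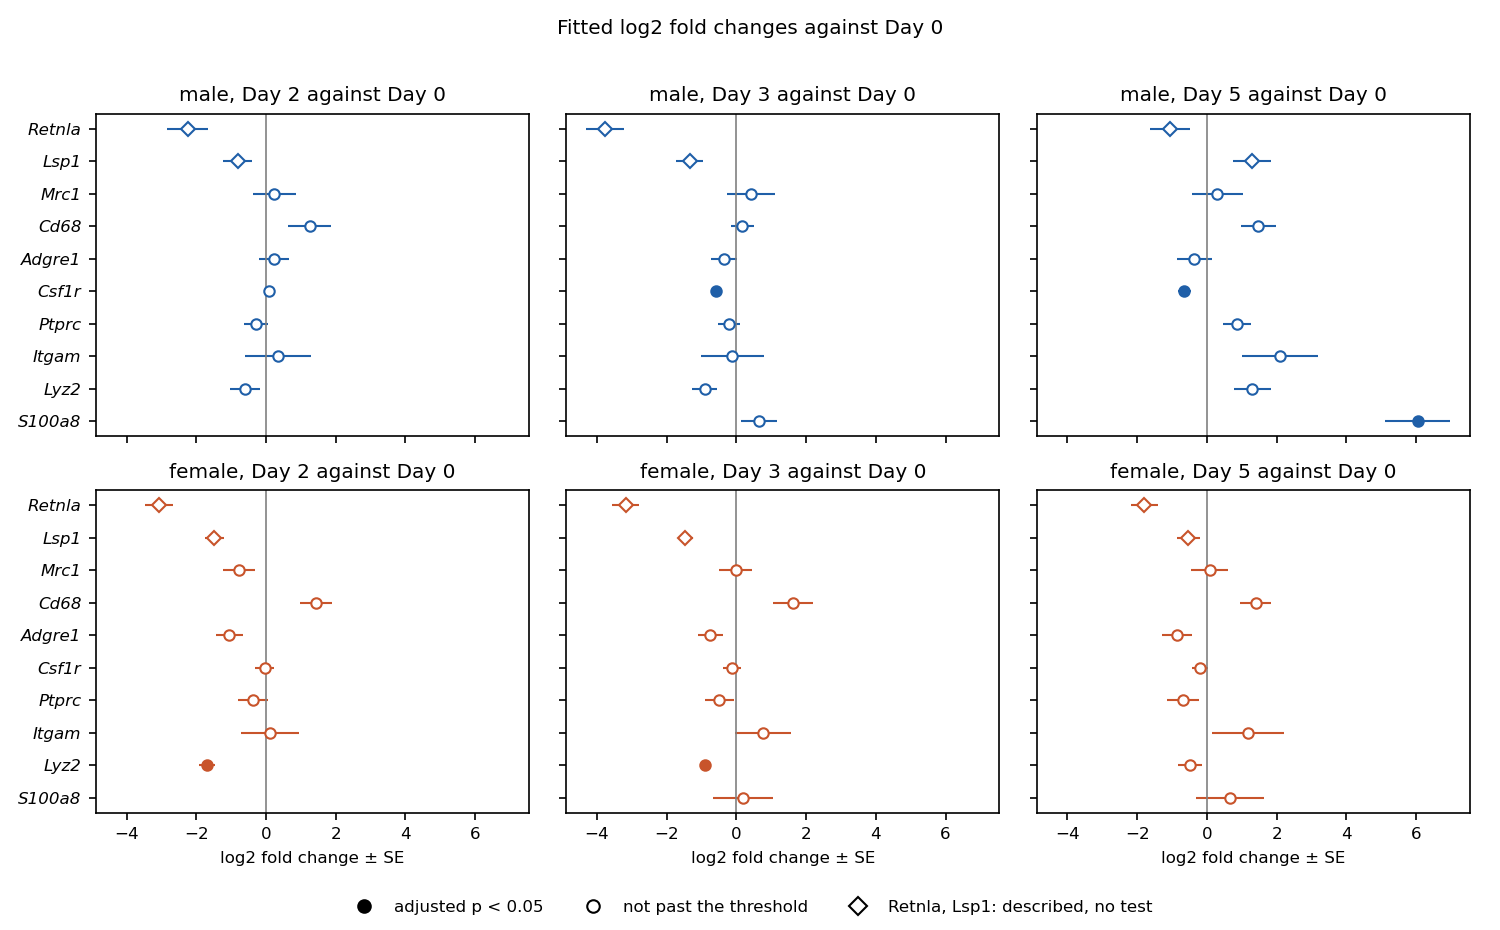
Fitted log2 fold change of each gene against Day 0 of the same sex, with its SE as a bar, 4 mice against 4 in each panel. Filled circles passed an adjusted p of 0.05 (Csf1r in males at Day 3 and Day 5, S100a8 in males at Day 5, Lyz2 in females at Day 2 and Day 3), open circles did not, and the open diamonds are Retnla and Lsp1, which were not tested.

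Lyz2 (chromosome 10, 117277331 to 117282321) fell in females. The Day 0 females held 42.8, 43.0, 32.8 and 36.6 CPM, against 11.4, 8.80, 11.5 and 16.4 CPM at Day 2 and 19.3, 18.9, 25.4 and 21.0 CPM at Day 3, with no overlap between Day 0 and either day. The change was -1.70 ± 0.24 on the log2 scale at Day 2, a 3.24-fold fall (edgeR adjusted p = 0.0114), and -0.89 ± 0.16 at Day 3, a 1.85-fold fall (edgeR adjusted p = 0.0465). The Day 3 call was lost when any of 7 of the 8 libraries was left out, all but Day 0 mouse 4, with an adjusted p of up to 0.168, and in 1 fit over all 8 groups (edgeR adjusted p = 0.13), and that at Day 2 without Day 0 mouse 2 or without Day 2 mouse 1, 2 or 3, with an adjusted p of up to 0.0698. At Day 5 the females gave 53.8, 19.6, 22.0 and 15.5 CPM, so mouse 1 alone lay above the Day 0 range.

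Lyz2 in males was 23.4, 32.8, 35.8 and 75.5 CPM at Day 0, 17.5, 34.4, 15.4 and 41.7 CPM at Day 2 and 32.5, 18.1, 18.8 and 19.7 CPM at Day 3, and neither day passed the test. It rose between Day 3 and Day 5, where the values were 25.4, 111, 169 and 87.9 CPM, by 2.24 ± 0.49 on the log2 scale (edgeR adjusted p = 0.00974). The 3 high libraries lay above every Day 3 male, and the library labelled mouse 1 lay within the Day 3 range. Without that library the log2 change was 2.53 (edgeR adjusted p = 3.2e-05). The close paralog Lyz1, which shares sequence with Lyz2, was at 0 to 2.76 CPM in all libraries, and the counting could have split reads between them.

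S100a8 (chromosome 3, 90668978 to 90670035) rose most of the 8 genes, in males at Day 5. The Day 0 males had 9, 11, 10 and 6 counts (0.488, 0.550, 0.365 and 0.345 CPM) and the Day 5 males 59, 488, 164 and 76 counts (3.30, 72.5, 26.4 and 10.7 CPM). All 4 Day 5 males were above all 12 earlier male libraries, of which the highest had 1.0 CPM. The log2 change was 6.04 ± 0.93 against Day 0 (edgeR adjusted p = 0.0072) and 5.44 ± 0.96 against Day 3 (edgeR adjusted p = 0.00462). Both calls held with each library left out in turn, with an adjusted p of at most 0.0315 and 0.0202. Leaving out the library labelled mouse 1 gave a log2 change of 6.44 against Day 0. Leaving out mouse 2, the highest, gave 4.98.

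Female S100a8 values were 0.324, 0.687, 3.13 and 0.243 CPM at Day 0, 1.56, 0.357, 0.832 and 2.16 CPM at Day 3 and 2.51, 1.92, 2.23 and 0.129 CPM at Day 5, with overlap throughout. At Day 2, S100a8 was at 2 to 10 counts in each of the 8 mice of both sexes, too few for the test, though without Day 0 mouse 4 the gene could be tested in females and was called lower at Day 2 (log2 -2.84, edgeR adjusted p = 0.0257). S100a9, the other chain of calprotectin, moved with it: the Day 5 males held 4.47, 109, 41.4 and 18.4 CPM, against 0.325 to 1.24 CPM at Day 0, a log2 change of 6.05 ± 0.97 (edgeR adjusted p = 0.00844). Csf3r, the receptor of the neutrophil growth factor G-CSF, was also higher in males at Day 5 (log2 4.50 ± 1.02, edgeR adjusted p = 0.0185), at 2.07, 27.0, 14.5 and 6.03 CPM. In the list of 25 neutrophil genes, 7 could be tested in that comparison; 2 were called, both higher, beside 8.98% of all genes called higher, and all 7 had a positive log2 change. Without the library labelled mouse 1 the calls were 3 of 8, with Retnlg added, beside 11.4% of 15221 genes. From Day 3 to Day 5, 7 of 9 tested neutrophil genes were called higher in males, beside 20.9% of all genes, among them Retnlg (log2 4.70) and Chil1 (log2 3.23), and without that library 10 of 11 were higher and 1 lower, beside 26.9% and 28.3%. Itgb2l was called higher in males at Day 2 (log2 1.51) and Day 3 (1.83), beside 1.81% and 11.4% of all genes. No other tested neutrophil gene was called on those days in males. From Day 3 to Day 5 the log2 change of Itgb2l was -0.90 (edgeR adjusted p = 0.0886). Granule genes differed in level: Mpo was at 0 in all 32 libraries, and Elane, Camp and Ngp had at most 13, 8 and 37 counts, while Ltf reached 46 and Mmp9 had 2 to 89. Ltf, which encodes lactoferrin, rose in males from Day 3 to Day 5 (log2 2.44, edgeR adjusted p = 0.0284). Ly6g, the usual surface marker of mouse neutrophils, was at 0 in 28 libraries.

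Csf1r, the receptor that keeps macrophages alive, fell in males. Its values were 62.2, 64.8, 46.2 and 49.4 CPM at Day 0, 67.1, 53.1, 49.0 and 66.6 CPM at Day 2, 33.9, 38.1, 34.9 and 42.4 CPM at Day 3 and 36.5, 36.7, 26.7 and 36.3 CPM at Day 5. No Day 3 or Day 5 male reached the lowest Day 0 or Day 2 male. The log2 change was -0.57 ± 0.14 at Day 3, a 1.49-fold fall (edgeR adjusted p = 0.0228), and -0.65 ± 0.18 at Day 5, a 1.56-fold fall (edgeR adjusted p = 0.0381). The Day 3 call was lost without Day 0 mouse 2 or without Day 3 mouse 1, 2 or 3 (adjusted p of up to 0.082), and the Day 5 call without Day 0 mouse 1 or 2 or Day 5 mouse 2, 3 or 4 (up to 0.118). Without a filter on low counts, neither was called (edgeR adjusted p of 0.0533 and 0.0847). Of its exons, 873 bases are shared with Hmgxb3 on the opposite strand, and whether the counting used strand is not given in the sources used here.

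In females, Csf1r had means of 47.2 ± 11.8, 45.9 ± 12.4, 43.8 ± 13.6 and 40.9 ± 3.92 CPM (SD, n = 4) at Day 0, 2, 3 and 5, with overlap between all days. Csf1, a ligand of the receptor, rose in females at Day 3: 48.0, 11.6, 34.6 and 32.4 CPM against 8.04, 6.79, 10 and 9.60 CPM at Day 0 (log2 1.87 ± 0.38, edgeR adjusted p = 0.0465). It was lower in males than in females at Day 3 (log2 -1.36 ± 0.38, edgeR adjusted p = 0.0419). Il34, the second ligand, which tubule cells make, ranged from 4.8 to 40.8 CPM over all libraries. Its largest difference from Day 0 was in males at Day 5 (log2 -1.11, edgeR adjusted p = 0.0844), and it passed the test against Day 0 on no day in either sex.

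Ptprc and Itgam rose in males from Day 3 to Day 5. Ptprc (chromosome 1, 138062861 to 138175708) went from 6.63, 6.37, 6.53 and 7.73 CPM to 6.71, 15.6, 14.8 and 17.8 CPM (log2 1.09 ± 0.28, edgeR adjusted p = 0.0165), a call that held with each library left out, with an adjusted p of at most 0.0495. The library labelled mouse 1 stayed within the Day 3 range and the other 3 lay above it. Itgam (chromosome 7, 128062640 to 128118491), which encodes the integrin chain CD11b of monocytes and neutrophils, had 27, 16, 20 and 9 counts at Day 3 and 20, 36, 37 and 3 counts at Day 5, or 1.13, 0.617, 0.759 and 0.350 CPM against 1.12, 5.35, 5.96 and 0.421 CPM. The 2 groups overlapped, and the call (log2 2.20 ± 0.73, edgeR adjusted p = 0.041) was lost without any 1 of the 4 Day 3 mice or without Day 5 mouse 2 or 3, with an adjusted p of up to 0.121, and also without a filter on low counts (edgeR adjusted p = 0.0625) and in 1 fit over all 8 groups (edgeR adjusted p = 0.0735). Itgb2, the partner chain of Itgam, was at 2.63, 13.4, 10.8 and 10.9 CPM in the Day 5 males against 2.58 to 4.82 CPM at Day 3 (log2 1.33 ± 0.45, edgeR adjusted p = 0.0422). In all, 4 of the 8 genes (S100a8, Lyz2, Itgam and Ptprc) were called higher from Day 3 to Day 5 in males and none lower, beside 20.9% of 15654 genes called higher and 17.1% lower. Without the library labelled mouse 1 the count was 5, with Cd68 added, beside 26.9% of 15976 genes called higher and 28.3% lower.

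The other steps between days gave no call for any gene by edgeR: 0% of 16232 genes between Day 2 and Day 3 in males, 0% of 16974 in females, and 0% of 16794 between Day 3 and Day 5 in females. Among the 8 genes, 1, 3 and 0 had an unadjusted p under 0.05 in these steps, and DESeq2 called 1 (Csf1r), 2 (Lyz2 and S100a8) and 0. Limma voom called none of the 8. Without female Day 3 mouse 2, edgeR called S100a8 higher at Day 3 than at Day 2 (log2 2.99, edgeR adjusted p = 0.0286).

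Cd68 (chromosome 11, 69664213 to 69666153), a lysosomal glycoprotein of phagocytes, had higher means after cisplatin but was uneven between mice. Day 0 males held 2.98, 3.50, 2.12 and 5.17 CPM and Day 0 females 3.63, 4.23, 1.32 and 3.13 CPM. Day 2 males were at 2.89, 6.24, 3.33 and 20.1 CPM, and Day 3 females at 15.1, 2.03, 9.55 and 11.6 CPM, so 1 mouse stood far from its group in each. Day 5 gave 2.46, 8.46, 14.5 and 11.2 CPM in males (log2 1.48 ± 0.51, edgeR adjusted p = 0.0694) and 12.8, 8.18, 7.58 and 4.11 CPM in females (log2 1.40 ± 0.45, edgeR adjusted p = 0.204). The male value passed the test without the library labelled mouse 1 (log2 1.81, edgeR adjusted p = 0.0075). The female Day 3 value (log2 1.61 ± 0.57, edgeR adjusted p = 0.0998) passed without Day 3 mouse 2 (log2 1.95, edgeR adjusted p = 0.0431).

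The markers of resident macrophages, Mrc1 and Adgre1, were not called against Day 0 by edgeR in the groups compared. Limma voom called Mrc1 higher in males at Day 2 and Day 3 and Adgre1 lower in females at Day 2, where 1 edgeR fit over all 8 groups called it too (log2 -1.05, edgeR adjusted p = 0.0496). Mrc1 (chromosome 2, 14229392 to 14332057), the mannose receptor, was at 3.09, 2.40, 1.60 and 14.2 CPM in Day 0 males and 6.37, 7.02, 4.78 and 6.66 CPM at Day 2. Day 0 mouse 4 alone lay above the Day 2 range, and without it Mrc1 was called higher at Day 2 (log2 1.42, edgeR adjusted p = 0.0285) and at Day 3 (log2 1.59, edgeR adjusted p = 0.0257). That mouse was also the highest of its group for Adgre1, Ptprc, Lyz2, Lsp1 and Retnla, and its adipocyte genes summed to 4779 CPM against 867 to 1158 CPM in the other 3. Adgre1 (chromosome 17, 57358691 to 57483527) was at 3.6, 2.53, 7.39 and 4.21 CPM in Day 0 females and 2.15, 1.71, 1.78 and 2.89 CPM at Day 2 (log2 -1.06 ± 0.39, edgeR adjusted p = 0.125).

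Between the sexes, no gene of the 10 was called at Day 0 (none at an unadjusted p under 0.05, none by DESeq2, and Retnla and Lsp1, both lower in males, by limma voom), beside 0.237% of 16042 genes called higher in males and 0.212% lower. At Day 2, Mrc1 was higher in males (6.21 ± 0.989 against 2.71 ± 0.817 CPM, SD, n = 4, with no overlap; log2 1.18 ± 0.25, edgeR adjusted p = 0.0497), beside 0.891% of 16608 genes higher and 0.578% lower. That call was lost without male mouse 1, 2 or 3 or female mouse 2, 3 or 4, with an adjusted p of up to 0.142, and in 1 fit over all 8 groups (edgeR adjusted p = 0.578). Adgre1 at Day 2, 5.65 ± 2.61 against 2.13 ± 0.539 CPM, did not pass (log2 1.39 ± 0.31, edgeR adjusted p = 0.057) and was called without male mouse 4 (log2 1.04, edgeR adjusted p = 0.0464). Ptprc was higher in males at Day 3 (6.81 ± 0.623 against 3.88 ± 1.11 CPM; log2 0.78 ± 0.19, edgeR adjusted p = 0.0192), beside 10.6% of 16673 genes higher and 10.7% lower, and lost the call without male mouse 4 or female mouse 3 (adjusted p of up to 0.0601) and in 1 fit over all 8 groups (edgeR adjusted p = 0.435). At Day 3, Retnla was called lower in males without female mouse 1 (log2 -1.30, edgeR adjusted p = 0.0165), and Cd68 without female mouse 2 (log2 -1.67, edgeR adjusted p = 0.0012), and neither passed with all 8 libraries (log2 -1.06 and -1.34, edgeR adjusted p of 0.0647 and 0.119).

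At Day 5, Ptprc was again higher in males (log2 2.07 ± 0.36, edgeR adjusted p = 0.0483), with 6.71 to 17.8 CPM against 2.43 to 4.88 CPM in females and no overlap, beside 0.217% of 15237 genes higher and 0.0591% lower. The call was lost without any 1 of 6 libraries (male mouse 2, 3 or 4, female mouse 1, 3 or 4), with an adjusted p of up to 0.192. Without the library labelled male mouse 1, the log2 difference of Ptprc was 2.36 (edgeR adjusted p = 0.00061), and Lsp1 (log2 2.02, edgeR adjusted p = 0.0029), Lyz2 (log2 2.26, edgeR adjusted p = 0.0046) and S100a8 (log2 4.52, edgeR adjusted p = 0.0137) were called as well. With all 8 libraries these 3 had log2 differences of 1.64 ± 0.51, 1.88 ± 0.57 and 4.09 ± 1.01 and did not pass (edgeR adjusted p of 0.157, 0.154 and 0.108).

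Whether the change from Day 0 itself differed between the sexes was tested as an interaction, and none of the 8 genes passed at Day 2, Day 3 or Day 5 by edgeR, with 2, 0 and 3 at an unadjusted p under 0.05. The background was 0% of 17467 genes at Day 2, 0.00568% of 17598 in each direction at Day 3, and at Day 5 0.0887% of 16907 genes more positive in males and 0.154% more negative. DESeq2 called none at Day 2 and Day 3 and S100a8 at Day 5, and limma voom called Mrc1 at Day 2, none at Day 3, and Ptprc and Lyz2 at Day 5. The largest value was that of S100a8 at Day 5, 5.35 ± 1.39 on the log2 scale (edgeR adjusted p = 0.103). Without the library labelled male Day 5 mouse 1 it was 5.73 (edgeR adjusted p = 0.0141), and Lyz2 passed too (log2 2.08, edgeR adjusted p = 0.0375).

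Other genes of the same cells were counted from lists, and several of the shares called lay near those of all genes. In a list of 32 other macrophage genes, 29 were tested in males at Day 3, and 9 were called lower and 2 higher, beside 13.1% of all genes lower and 11.4% higher. Their median log2 change was -0.28, against 0.02 over all genes. The largest falls were those of Ms4a7 (log2 -2.33), Aif1 (-1.97), Tyrobp (-1.57) and C1qa (-1.55), a tetraspanner, a cytoplasmic calcium-binding protein, a signalling adaptor and a complement chain. In females, Aif1 (log2 -2.70) and Fcer1g (-1.37) were lower at Day 2, and Aif1 (-2.60), C1qa (-1.81) and Fcer1g (-1.25) at Day 3. Of all genes, 1.16% and 4.28% were called lower on these days. From Day 3 to Day 5 in males, 8 of 29 were higher and 3 lower, near the 20.9% of all genes higher and below the 17.1% lower, led by Tyrobp (log2 2.24), Spi1 (2.21), which encodes PU.1, and Fcer1g (2.10). Among 28 genes common to leukocytes, all tested, Cd52 (log2 -1.92), Coro1a (-1.23) and Laptm5 (-0.98) were the 3 called in males at Day 3, all lower, a share near the 13.1% of all genes. In females at Day 3 the same 3 genes fell (-2.39, -1.55 and -0.95), beside 4.28% of all genes lower. In females at Day 2, Cd52 (-2.51) and Coro1a (-1.50) were called lower, beside 1.16%. From Day 3 to Day 5 in males 16 of these 28 rose and 1 fell, beside 20.9% of all genes higher and 17.1% lower. Without the library labelled Day 5 mouse 1, in a comparison that called 26.9% of 15976 genes higher and 28.3% lower, 20 of 29 macrophage genes were higher and 4 lower, and 25 of 28 leukocyte genes were higher and 1 lower. Against Day 0, 1 of the 28 leukocyte genes was called higher in males at Day 5, and 9 without that library, beside 8.98% and 11.4% of all genes.

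At Day 2 and Day 3, few genes of alternative activation were called against Day 0. Of 10 tested in males at Day 3, Egr2 rose (log2 4.25), Retn fell (-2.95) and 8 were not called, beside 11.4% of all genes higher and 13.1% lower, so these counts are near the background; Retn, which encodes resistin, is in mice an adipocyte product. In males at Day 5, Chil3 (Ym1), which is made by alternatively activated macrophages and by neutrophils, rose to 0.783, 10.7, 30.1 and 2.52 CPM from 0 to 0.550 CPM at Day 0 (log2 5.53 ± 1.25, edgeR adjusted p = 0.0185), and Cd36 and Il13ra1 fell, beside 8.98% of all genes higher and 10.2% lower. From Day 3 to Day 5 in males, genes of this list were called in both directions, beside 20.9% of all genes higher and 17.1% lower. Retnlg (log2 4.70) and Retn (4.67) were among the higher ones. Without the library labelled mouse 1, 4 of 10 were higher and 3 lower, beside 26.9% and 28.3%. Retn was also called lower in males at Day 2 (log2 -2.03) and in females at Day 2 and Day 3 (-2.09 and -1.96), the 1 gene called of 10, 10 and 14 tested, beside 1.35%, 1.16% and 4.28% of all genes lower, too few to set apart from these shares. Of 12 monocyte genes, Nr4a1, a transcription factor of patrolling monocytes that is also an immediate early gene of many cells, rose in males at Day 2, Day 3 and Day 5 (log2 2.47, 2.71 and 2.80). At Day 5, 2 of 11 tested monocyte genes were higher and 1 lower, beside 8.98% and 10.2% of all genes, and 6 and 1 without the library labelled mouse 1, beside 11.4% and 14.5%; Ly6c2 (2.75) and Ccr2 (1.75), genes of inflammatory monocytes, rose from Day 3 to Day 5 in males.

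Summed levels of lymphocyte genes were lower at Day 3 than at Day 0 in every mouse of the same sex. The 24 T and NK cell genes summed to 9.30 to 27.5 CPM at Day 0 and 4.51 to 9.06 CPM at Day 3, and Nkg7 was called lower in females at Day 2 (log2 -2.43) and Day 3 (-3.50). The 14 B and plasma cell genes summed to 40.8 to 214 CPM at Day 0 and 23.3 to 37.3 CPM at Day 3; Ighm (-2.82) and Igkc (-2.76) fell in males at Day 3. From Day 3 to Day 5 in males, 4 of 6 tested T and NK cell genes and 6 of 9 B cell genes rose, beside 20.9% of all genes. The counts were 5 of 7 and 7 of 9 without the library labelled Day 5 mouse 1, beside 26.9%. Of the 12 dendritic cell genes, Batf3 fell in females at Day 2 and Day 3 (log2 -2.97 and -2.79) and Siglech at Day 3 (-3.45), Fscn1 fell in males at Day 3 (-0.90), and Zbtb46 rose in males at Day 2, Day 3 and Day 5 (0.98, 1.08 and 0.85). From Day 3 to Day 5 in males the mast cell genes Tpsb2 (4.88) and Kit (0.70) and the dendritic cell gene Batf3 (2.67) rose. With the library labelled mouse 1 left out, 4 mast cell genes could be tested, of which Tpsb2 and Kit were higher and Ms4a2 (-2.91) and Hdc (-0.88) lower, with a median of -0.13.

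Markers of other tissues and of the tubule moved with several of these results, and their part in them was not tested. The 13 adipocyte genes summed to 867 to 4779 CPM in Day 0 males, 427 to 598 CPM at Day 3 and 1555 to 7878 CPM at Day 5. In females the sums were 1227 to 2722, 708 to 1165 and 793 to 2058 CPM on these days. At Day 3 in males, 6 of 13 adipocyte genes were called lower, beside 13.1% of all genes, and from Day 3 to Day 5 all 13 were higher, with or without the library labelled mouse 1, beside 20.9% and 26.9%. The 7 erythroid genes summed to 444 to 2691 CPM at Day 0, 18.7 to 127 CPM at Day 3 in both sexes and 251 to 5575 CPM in males at Day 5. The 7 genes of the mesothelium and of peritoneal macrophages summed to 24.7 to 49.8 CPM in the other 7 groups and to 47.5, 164, 267 and 75.9 CPM in males at Day 5, where Msln (log2 4.01) and Upk3b (2.67) rose. The genes of the marker lists named above as changed in males at Day 5, against Day 0 or Day 3, were also called in the same direction without the library labelled mouse 1. Of the 12 proximal tubule genes, 4 were called lower in males at Day 5 against Day 0 and 8 against Day 3, with medians of -1.94 and -2.14. All genes were called lower at 10.2% and 17.1% in these comparisons. Without the library labelled mouse 1 the counts were 11 and 12 (-3.27 and -3.35), beside 14.5% and 28.3%. The summed endothelial genes went from 611 to 647 CPM in Day 0 males to 502 to 1390 CPM at Day 5. Against Day 0, Pecam1 (log2 1.10), Cdh5 (1.26) and Tek (0.90) were called higher there, beside 8.98% of all genes. Without the library labelled mouse 1, 5 of 9 endothelial genes were higher, with a median of 1.01, beside 11.4%. Liver genes were at 282 to 490 CPM in Day 0 females 1, 3 and 4 and at 12564 CPM in mouse 2, which was also the highest of its group for Retnla. The other 3 mice of that group held 13.7 to 15.4 CPM of Retnla, still above every later female.

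**Figure D3:**
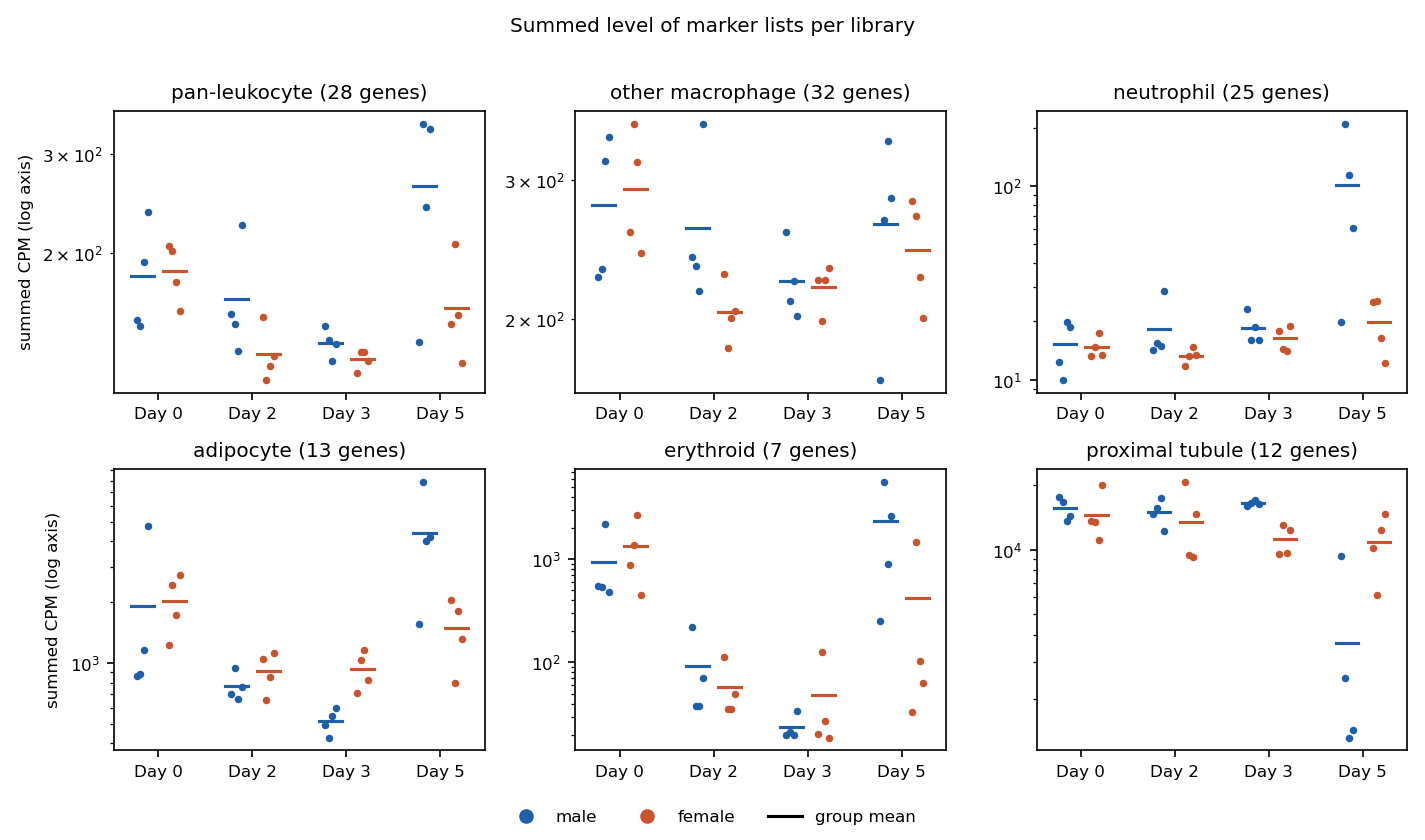
Summed CPM of 6 marker lists in each library on a log axis, by day, with males in blue, females in orange and bars at the group means of 4 mice. In males, erythroid and adipocyte sums are lowest at Day 3 and high at Day 5, where the neutrophil sum reaches 60.6 to 209 CPM in 3 libraries and 19.9 CPM in the library labelled mouse 1.

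Exon length also moved with the comparisons against Day 0. Protein-coding genes with under 1500 exon bases had a median log2 change of -0.66, -0.81 and -0.30 in males at Day 2, 3 and 5 and of -0.81, -0.87 and -0.55 in females, whereas those of 5000 bases or more had medians between 0.13 and 0.30. Retnla (599 bases), S100a8 (694), Cd68 (1257) and Lyz2 (1316) are in the short class and the other 6 genes have more than 3000 bases. At Day 3 the log2 change of Lyz2 (-0.89 in females) was close to the median of its class, that of Retnla was far below it, and those of Cd68 and S100a8 were above it. Lsp1, with 5174 bases, was lower while the median of its class was above 0. Among the 8 tested members, other macrophage and leukocyte genes together, without Retnla and Lsp1, those under 1500 bases had a median of -1.0 in males and -1.12 in females at Day 3, and 5 and 4 of 11 were called lower, beside 45% and 19.2% of all protein-coding genes of that length. Those of 5000 bases or more had medians of 0.12 and -0.03, with 1 and 0 of 21 called lower, beside 4.35% and 1.18%. Those of 1500 to 3000 bases had medians of -0.52 and -0.59, against -0.32 and -0.26 over all protein-coding genes of that length. There, 4 of 16 and 2 of 18 were called lower, beside 24.2% and 6.88%. From 3000 to 5000 bases the medians were -0.49 and -0.48, against -0.03 and 0.04. In that class 3 and 1 of 16 were called lower, beside 12.2% and 2.86%.

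**Figure D4:**
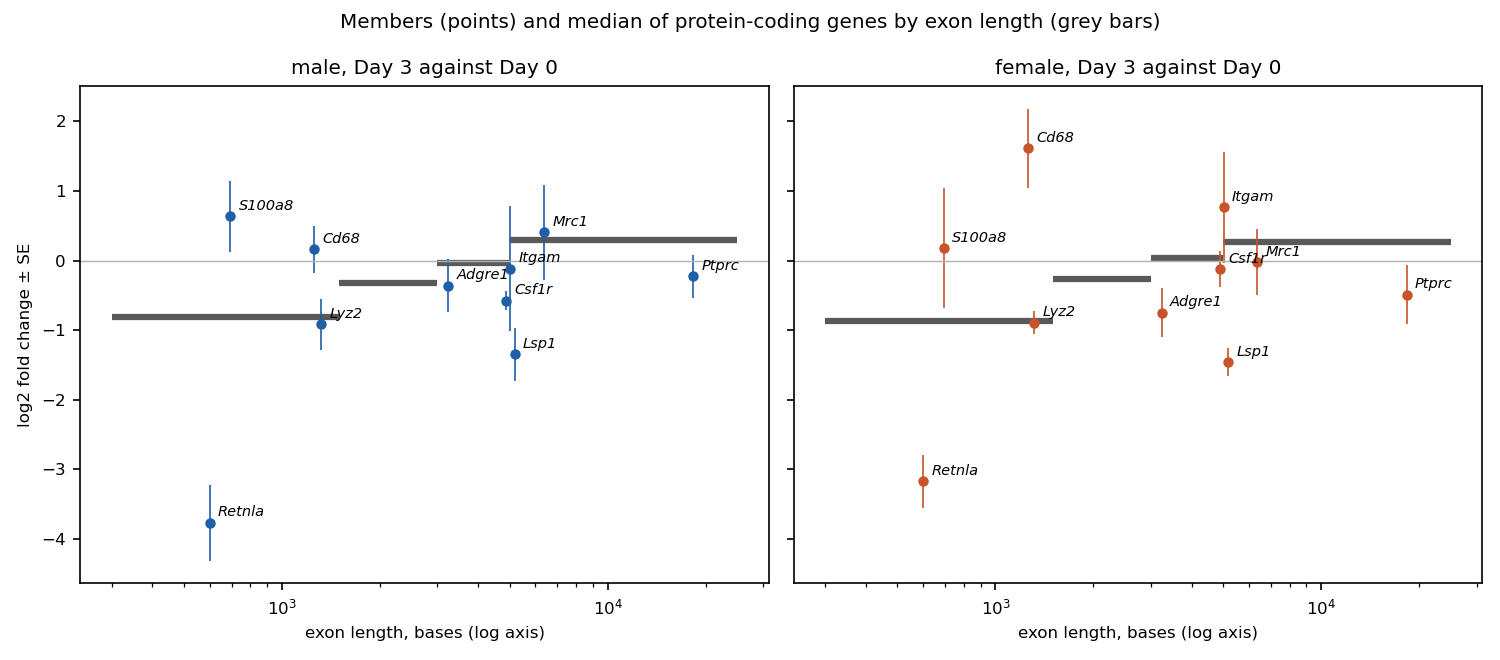
Log2 fold change of each gene at Day 3 against Day 0, with its SE, by exon length on a log axis, males left and females right; grey bars are the medians of all protein-coding genes in 4 length classes. Short genes have a median of -0.81 in males and -0.87 in females, Retnla lies below that and Lyz2 close to it.

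Across the 32 libraries the 10 genes did not vary as 1 group. The median Pearson's r of log2 CPM over their 45 pairs was 0.27, and 0.09 over the 24 libraries without Day 5; these correlations describe libraries that share groups and depth. Lsp1 and Lyz2 were the most alike (r = 0.84, and 0.82 without Day 5), followed by Retnla and Lsp1 (r = 0.67 and 0.90), which were both chosen for lower counts after cisplatin in these libraries, so that their likeness follows in part from the choice. Csf1r and S100a8 ran opposite (r = -0.51 and -0.42). S100a8 with Lyz2 (0.65 and 0.18) and with Lsp1 (0.62 and 0.00057) were alike through Day 5.

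**Figure D5:**
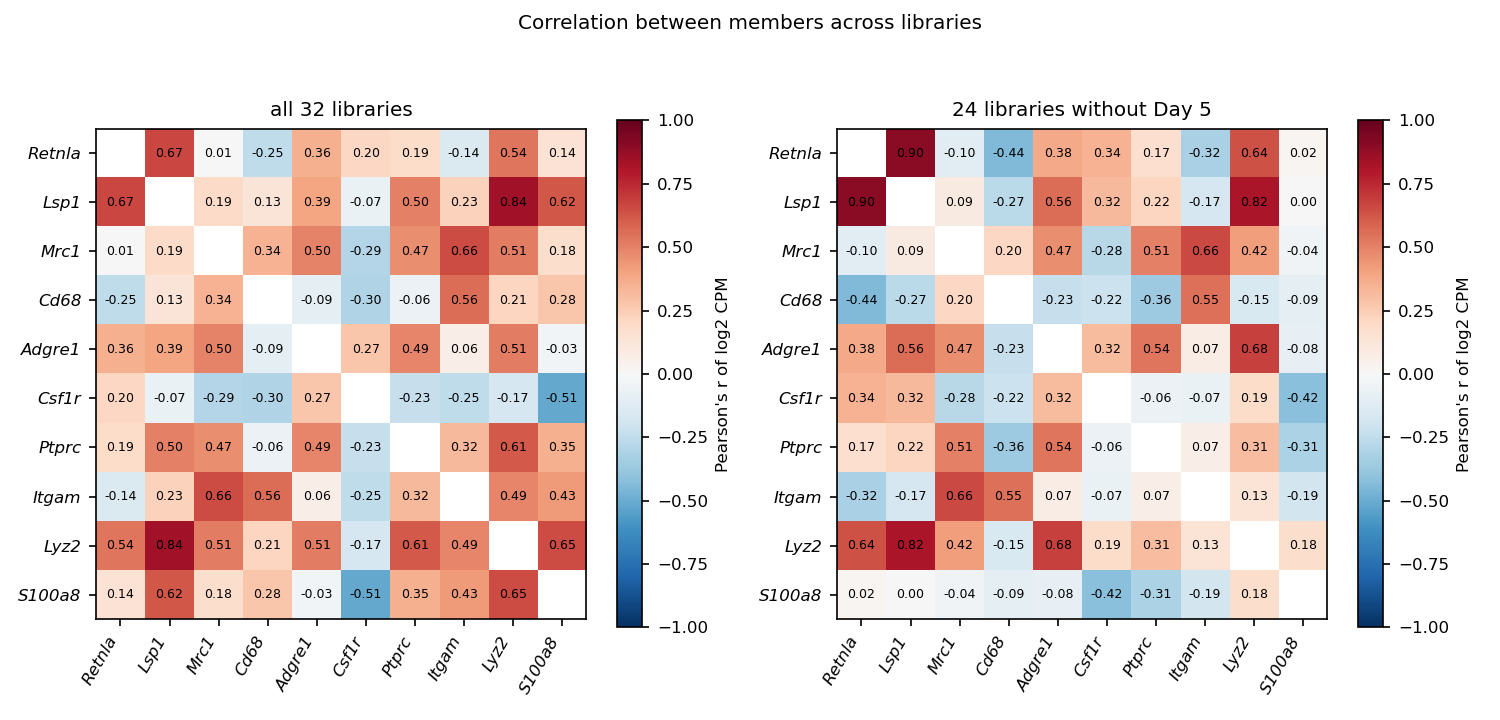
Pearson's r of log2 CPM for each pair of the 10 genes over all 32 libraries (left) and over the 24 libraries without Day 5 (right), from -1 in blue to 1 in red. Lsp1 and Lyz2 stay alike in both panels, and without Day 5 S100a8 goes from 0.65 to 0.18 with Lyz2 and from 0.35 to -0.31 with Ptprc, but stays opposite to Csf1r.

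Among 15045 protein-coding genes, those most like Retnla over the 32 libraries were Chchd6 (r = 0.84), Ptms (0.84), Smco4 (0.84), Ppdpf (0.83) and the haemoglobin chain Hba-a2 (0.83), none of them a macrophage marker. The 13 adipocyte genes ranged from 0.020 (Plin4) to 0.75 (Thrsp) in their r with Retnla, and from -0.13 to 0.92 for the same genes without Day 5. Those most like Lsp1 were Coro1a (0.94) and Fcer1g (0.94), both leukocyte genes, Tpm2 (0.93) and Acta2 (0.93), both of smooth muscle, and Arhgap45 (0.93). Csf1r was most like Dgkz (0.77), Gm853 (0.76), Mrpl44 (0.74), Slc9a8 (0.74) and Sppl2b (0.73), and no other of the 10 genes came near it, the most alike being Adgre1 at 0.27. S100a8 was most like S100a9 (0.96, and 0.83 without Day 5), then Anxa1 (0.85), Nupr1 (0.84), Efemp1 (0.84) and Parp6 (0.84), which dropped to between 0.24 and 0.49 without Day 5.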

How the data were processed

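Total RNA of 32 kidneys was sequenced in bulk, 1 library per mouse. The authors deposited a table of raw read counts per gene and a table of FPKM values per gene, with a column for each library, and the submitters' processing notes name HTSeq and DESeq2 and the builds GRCm39 and mm39; the study's methods name GRCm38. The coordinates in the tables equal those of GENCODE M21 (GRCm38) for 98.33% of the 54495 identifiers found in both, so positions are given for GRCm38. The annotation and the use of strand in counting are not given in the sources used here, and reads of overlapping or near-identical genes may have been split. Groups were taken from the labels.

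Counts were tested with edgeR 4.0.16 (quasi-likelihood, TMM scaling, filterByExpr, robust) in R 4.3.3, fitting only the groups compared, in 17 comparisons, with Benjamini-Hochberg adjustment over all genes tested and a threshold of 0.05. CPM values are counts scaled by the TMM-adjusted library size, and 3 counts correspond to 0.0669 to 0.483 CPM. FPKM values, as deposited by the authors, were used only to order levels between genes. The SE of a log2 fold change is its size divided by the square root of the test's F. Correlations used log2 CPM with a prior count of 2. DESeq2 1.42.0, limma 3.58.1 (voom with sample quality weights), other scaling and filters, 1 fit over all groups, a replicate block, a fold threshold and leaving out each library were the alternatives; the removal of 2 libraries together and the lists without the library labelled male Day 5 mouse 1 were added after seeing the data. The test was checked on simulated counts. No library was a copy of another. The members, the gene lists and the tests were chosen with earlier results of these data known. Beyond the members, the genes named are Csf1, Il34, Itgb2, S100a9 and Csf3r as ligands and partners, up to 4 genes per list and comparison with the largest absolute log2 fold change among those with an adjusted p under 0.05, the 5 protein-coding genes with the highest r to each of Retnla, Lsp1, Csf1r and S100a8, and defining markers named for their level. Lyz1 and Hmgxb3 were named for shared sequence, Ltf, Ngp, Mmp9, Ms4a2 and Hdc after their values were seen, and the range of r of the adipocyte list with Retnla was given after its values were seen.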

Additional observations from a re-analysis of the deposited data

Results flagged for a closer look

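In 10 of the 80 groups of 4 mice examined (10 genes in 8 groups), 1 mouse lay further from the other 3 than Dixon's criterion allows, where chance flags about 1 in 20 groups. Among males, these were Mrc1 in Day 0 mouse 4 at 14.2 CPM and Adgre1 in the same mouse at 9.31 CPM, Mrc1 in Day 3 mouse 1 at 12.5 CPM and Lyz2 in the same mouse at 32.5 CPM, and Csf1r in Day 5 mouse 3, the lowest at 26.7 CPM. Among females, they were Retnla in Day 0 mouse 2 at 24.7 CPM, S100a8 in Day 0 mouse 3 at 3.13 CPM, Lsp1 in Day 3 mouse 4, the lowest at 4.04 CPM, and Itgam and Lyz2 in Day 5 mouse 1 at 2.62 and 53.8 CPM.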

How the results depend on the processing

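The counts below are of genes called among the 8 tested between days or the 10 tested between sexes. The share of all genes called is not given for each alternative, so a higher count is no result about these genes. In limma voom, the count was 1 in males at Day 2, 2 at Day 3 and 6 at Day 5 against Day 0, 3 in females at Day 2, 2, 3, 3 and 4 between sexes at Day 0, 2, 3 and 5, and 1 and 2 for the interaction at Day 2 and Day 5. DESeq2 called 2 in males at Day 3, 2, 2 and 1 in females at Day 2, 3 and 5, 1 and 2 between Day 2 and Day 3 in males and females, 3, 2 and 4 between sexes at Day 2, 3 and 5, and 1 for the interaction at Day 5. Without a filter on low counts the count was 0 in males at Day 3, 1 at Day 5 and 2 between sexes at Day 2. One fit over all 8 groups gave 3 in females at Day 2, 0, 0 and 4 between sexes at Day 2, 3 and 5, and 1 for the interaction at Day 5. With a log2 change over 1.5 required, the count was 0 in males at Day 3, 1 at Day 5, 3 from Day 3 to Day 5, 0 in females at Day 3 and 0 between sexes at Day 2 and Day 3. Leaving out 1 library at a time gave 0 to 1, 0 to 2 and 1 to 4 in males at Day 2, 3 and 5, 0 to 2 and 0 to 1 in females at Day 2 and 3, 3 to 5 in males from Day 3 to Day 5, 0 to 1 in females from Day 2 to Day 3, 0 to 2, 0 to 2 and 0 to 4 between sexes at Day 2, 3 and 5, 0 to 2 for the interaction at Day 5, and 0 in the rest. Leaving out the library labelled male Day 5 mouse 1 and female Day 5 mouse 2 together gave 4 between sexes at Day 5 and 1 for the interaction. The difference of S100a8 between sexes at Day 0, -1.33 on the log2 scale, was 0.13 in limma voom and ranged from -1.66 to 0.052 with 1 library left out, the latter without female Day 0 mouse 3. The median r over pairs of members was 0.087 without Day 5, against 0.27. The cause of these changes was not tested.

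Mouse numbers did not pair the samples between days: of 48 correlations of same-numbered mice between days of a sex, from -0.278 to 0.252, 7 were over 0.1. Of 16 between the sexes on a day, from -0.415 to 0.481, 5 were. At Day 0 those of mice 1 to 4 were 0.272, -0.0737, 0.444 and 0.481. With the number as a replicate block the count was 0 in males at Day 3, 1 at Day 5, 0 in females at Day 3, and 2 and 0 between sexes at Day 3 and Day 5. With the block Itgam was not called in males from Day 3 to Day 5 (log2 1.84, edgeR adjusted p = 0.0837), which left 3 genes, and between sexes at Day 2 Adgre1 was called (edgeR adjusted p = 0.0449) and Mrc1 was not (edgeR adjusted p = 0.133). Itgam and S100a8, with few counts, are limited most by depth.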
